A study of Mus musculus with 2 samples.

Results

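Small nucleolar RNAs (snoRNAs) were examined in total RNA from the left cerebral cortex of 2 male mice. The genes described are those with a transcript annotated as snoRNA and a level of at least 1 TPM, a measure of abundance per length, in the gene table of both animals. This rule found 86 genes among 1507 annotated snoRNA genes (5.71%) and 55536 annotated genes of all types. Since the members were chosen by their TPM in these gene tables, the levels and the fact of detection are given as a description. Both animals were 5xFAD X Cast males of 8 to 10 months, biological replicates 1 and 2 of a single group, with no control group. 5xFAD is a transgenic mouse model of Alzheimer's disease whose transgenes are driven by the neuronal Thy1 promoter, and CAST is a wild-derived inbred strain; the labels do not say which animal carried the transgenes. Each library was made from 300 ng of RNA and has a biosample label of its own, while the donor label, which names a strain, is shared. With 2 animals in 1 group no test was made, and every interval below covers counting error only. In bulk tissue, fewer cells of a type and less RNA per cell cannot be told apart.

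snoRNAs are stable noncoding RNAs of the nucleolus that guide chemical modification of other RNAs, mainly ribosomal RNA. C/D snoRNAs carry a C box near the 5′ end and a D box near the 3′ end, bind fibrillarin and guide 2′-O-methylation. H/ACA snoRNAs fold into hairpins followed by an H box and an ACA near the 3′ end, bind dyskerin and guide pseudouridylation. A few, such as U3, U8 and U17, act in the cleavage of the ribosomal RNA precursor instead. Most mammalian snoRNAs are cut from introns of host genes after splicing, and arrays of C/D snoRNAs lie in imprinted loci that are active in neurons.

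The highest H/ACA genes were Gm26447, in the translation factor gene Eif4a2, and Gm22988, in its paralog Eif4a1. Both sequences are shown because no other member assigned to a class by its sequence alone was as high. In Gm26447 the marked ACA is followed by only 1 base, outside its usual place, and was found only by the looser search described below. That search also found an ACA in 59.8% of the snoRNA genes longer than 100 bases that were not members. The H/ACA class of Gm26447 is therefore less certain than that of Gm22988. Gm25291, in Sec24a, is shown as the nearest relative of Gm22988 among the members. Here and below capitals mark the H box (ANANNA) and the ACA, sequences run 5′ to 3′, and all come from the GENCODE M21 transcripts.
Gm26447: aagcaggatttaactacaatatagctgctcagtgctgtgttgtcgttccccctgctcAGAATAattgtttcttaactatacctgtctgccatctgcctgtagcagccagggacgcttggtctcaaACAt
Gm22988: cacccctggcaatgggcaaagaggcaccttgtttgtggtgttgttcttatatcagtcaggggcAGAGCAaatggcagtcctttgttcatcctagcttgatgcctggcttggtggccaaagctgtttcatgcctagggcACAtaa
Gm25291: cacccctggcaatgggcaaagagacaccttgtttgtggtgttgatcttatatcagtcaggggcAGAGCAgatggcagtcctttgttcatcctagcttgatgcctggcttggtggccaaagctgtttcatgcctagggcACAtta
On mm10, Gm26447 lies at chr16:23111301-23111429 on the plus strand and Gm22988 at chr11:69669635-69669778 on the minus strand, each inside a retained-intron exon of its host. Gm25291 lies in an intron at chr11:51737779-51737922 on the minus strand. It shares 140 of 144 bases with Gm22988 (97.2%).

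The U17 family is shown because 2 named genes and a relative were all among the 10 highest H/ACA members. U17 takes part in the early cleavages that release 18S ribosomal RNA.
Snora73b: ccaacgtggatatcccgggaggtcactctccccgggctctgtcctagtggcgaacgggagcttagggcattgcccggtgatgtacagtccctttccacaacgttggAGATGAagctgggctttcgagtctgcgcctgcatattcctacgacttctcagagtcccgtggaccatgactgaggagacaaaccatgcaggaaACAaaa
Snora73a: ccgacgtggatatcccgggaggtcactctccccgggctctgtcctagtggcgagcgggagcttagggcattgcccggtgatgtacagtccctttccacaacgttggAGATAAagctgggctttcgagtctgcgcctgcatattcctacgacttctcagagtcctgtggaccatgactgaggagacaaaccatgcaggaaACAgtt
Gm26448: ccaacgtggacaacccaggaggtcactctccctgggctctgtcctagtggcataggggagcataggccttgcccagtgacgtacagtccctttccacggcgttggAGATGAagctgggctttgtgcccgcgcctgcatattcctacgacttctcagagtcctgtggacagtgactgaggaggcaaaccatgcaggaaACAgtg
Snora73b (chr4:132352322-132352526) and Snora73a (chr4:132352775-132352979) lie in the host RNA gene Snhg3 on the minus strand, the first in an intron and the second overlapping an exon. Gm26448 (chr9:120129351-120129553, plus strand) lies in an intron of Rpsa, a gene of the small ribosomal subunit. Snora73a matched Snora73b at 198 of 205 bases (96.6%) and Gm26448 at 182 of 205 (88.8%).

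The C/D sequences below are the highest outside the U3 family, with the weaker of the pair in Rps3 and the only C/D member in Eif4a1. Capitals mark the C box (NTGATGA) and the D box (CTGA).
Snord15b: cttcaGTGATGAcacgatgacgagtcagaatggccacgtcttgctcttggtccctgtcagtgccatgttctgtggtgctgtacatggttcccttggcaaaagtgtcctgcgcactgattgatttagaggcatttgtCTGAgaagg
Snord15a: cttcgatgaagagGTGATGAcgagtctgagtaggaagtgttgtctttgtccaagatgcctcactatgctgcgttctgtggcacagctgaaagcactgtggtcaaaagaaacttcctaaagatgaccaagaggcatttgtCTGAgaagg
Gm22486: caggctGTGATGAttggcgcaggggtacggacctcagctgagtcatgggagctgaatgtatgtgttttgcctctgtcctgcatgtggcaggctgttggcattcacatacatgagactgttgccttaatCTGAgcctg
Gm25835: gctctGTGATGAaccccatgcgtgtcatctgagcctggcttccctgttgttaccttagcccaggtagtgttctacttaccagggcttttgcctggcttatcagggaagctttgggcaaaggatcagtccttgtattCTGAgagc
Snord15b (chr7:99479563-99479707) and Snord15a (chr7:99482785-99482932) lie on the minus strand of Rps3, the first inside a retained-intron exon and the second in an intron, and matched at 107 of 148 bases (72.3%). Gm22486 (chr6:71882557-71882693, minus strand, overlapping an exon of Ptcd3) overlaps the RefSeq gene Snord94, whose RNA guides methylation of the spliceosomal U6 RNA. Gm25835 (chr11:69668852-69668995, minus strand) lies in an intron of Eif4a1.

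U3, which directs the first cleavages on the way to 18S ribosomal RNA, is shown because its entries account for 4 of the 5 members called different between the animals below. Only the D box is marked, since U3 carries its C box inside the molecule.
Rnu3b1, 216-base entry: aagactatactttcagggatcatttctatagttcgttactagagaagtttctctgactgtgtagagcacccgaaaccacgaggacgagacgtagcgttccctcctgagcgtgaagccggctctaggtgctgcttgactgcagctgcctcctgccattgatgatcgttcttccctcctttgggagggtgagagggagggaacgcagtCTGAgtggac
Rnu3a: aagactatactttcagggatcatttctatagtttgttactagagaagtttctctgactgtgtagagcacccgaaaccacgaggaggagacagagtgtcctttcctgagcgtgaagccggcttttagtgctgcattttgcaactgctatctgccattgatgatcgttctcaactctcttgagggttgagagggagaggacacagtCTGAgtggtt
Snora52: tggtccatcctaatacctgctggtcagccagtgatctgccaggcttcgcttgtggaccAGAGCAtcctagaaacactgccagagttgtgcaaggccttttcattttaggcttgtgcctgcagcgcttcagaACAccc
The Rnu3b1 entry lies at chr11:87443237-87443452 and Rnu3a at chr10:40258467-40258680, both on the plus strand, and they matched at 187 of 216 bases (86.6%). Snora52 (chr7:141448803-141448939, plus strand, inside a retained-intron exon of the ribosomal protein gene Rplp2) is the other member called different between the animals.

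Length, before level, decided which snoRNAs could be detected. In the deposited gene tables the effective length of an entry was its length minus 100 bases, and it was 0 for entries of 100 bases or fewer. Of the 1507 snoRNA genes, 459 (30.5%) were that short, and none of them had a read in either gene table or in either of the transcript tables with estimated counts. The same held for all 2452 genes of 100 bases or fewer, of any type, in the gene tables. Of the 1048 longer snoRNA genes, 86 (8.21%) were detected and 920 had 0 expected counts in both libraries. The members were 110 to 325 bases long, with a median of 136.

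**Figure D1:**
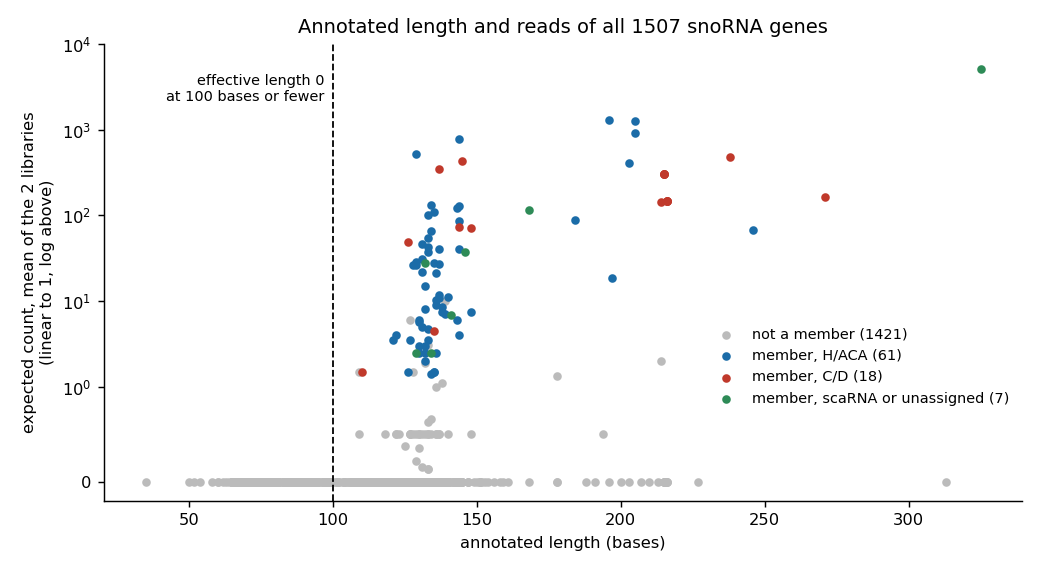
Annotated length in bases (x) and expected count as the mean of the 2 libraries (y, linear up to 1 and logarithmic above) for the 1507 snoRNA genes, with members coloured by class. No gene left of the dashed line at 100 bases has a read; most members lie just beyond it, and the C/D members of 214 to 216 bases are the U3 entries.

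Class was taken from the gene's name or RefSeq match, and otherwise from the boxes in its sequence. Of 335 C/D genes 309 were of 100 bases or fewer, against 31 of 668 H/ACA genes. Of the rest of the 459 short genes 118 were assigned to no class and 1 was a scaRNA by name. Among genes with Snord names, 87 of 98 were too short and 6 of the 11 longer ones were members. All 42 genes with Snora names were longer than 100 bases, and 21 of them were members. The members comprised 61 H/ACA genes, 18 C/D genes, the small Cajal body RNA Scarna10 and 6 genes assigned to no class. Among genes longer than 100 bases, 18 of 26 C/D genes (69.2%) and 61 of 637 H/ACA genes (9.58%) were members. Of the 18 C/D members 9 were U3 entries. Class rested on the name for 38 members and on the sequence for 42.

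The ACA and the paired C and D boxes were more frequent in the members than in the other snoRNA genes longer than 100 bases. The detection rule does not use these boxes. An ACA followed by exactly 3 bases to the 3′ end, its usual place, was found in 51 of 86 members (59.3%) and in 205 of 962 other genes (21.3%). Of the 52 members with at least 10 reads in both libraries 25 had it (48.1%), and of the other 34 members 26 (76.5%). The looser search, with 1 to 5 bases after the ACA, found it in 69.8% of the members and 59.8% of the others. Genes with Snora names had the exact form in 83.3% of cases, and small nuclear RNAs of the same length range in 0.809%. The H box, with few fixed letters, separated little: it was found in 80.2% of the members and 84.3% of the others. A C box in the first 20 bases together with a D box in the last 15 was found in 8 of 86 members (9.30%), in 5 of 962 others (0.520%) and in 63.2% of the snoRNA genes too short to be counted. All searches were on the transcript strand.

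Many of the members have no family name. Genes with a Gm number made up 48 of the 86 members and 1342 of the 1507 snoRNA genes. The ACA in its exact place was found in 33 of these 48 members (68.8%) and in 187 of 933 other Gm genes longer than 100 bases (20.04%).

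The members took few reads. They held 17348 of 33925198 expected counts on genes in replicate 1, or 0.0511% (95% Clopper-Pearson interval 0.0504% to 0.0519%). In replicate 2 they held 13701 of 32380299, or 0.0423% (0.0416% to 0.0430%). Because TPM divides by the effective length, the same genes summed to 0.815% and 0.754% of all TPM. At the median effective length of the members, 1 read was worth 1.11 TPM in replicate 1 and 1.25 TPM in replicate 2. For Snord8, the shortest member, with an effective length of 10 bases, 1 TPM stood for 0.25 and 0.22 reads.

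Precision therefore varied widely among the members. At least 100 reads in both libraries supported 21 of them and at least 10 reads 52. Under 10 reads in both libraries were found for 26, and 19 had 2 reads or fewer in a library. The deposited credibility interval of the TPM began below 1 in a library for 31 members. Mean TPM was at least 100 for 19 members, between 10 and 100 for 37 and under 10 for 30. Detection at this level was also not the same in the 2 animals: 18 further snoRNA genes reached 1 TPM in replicate 1 alone and 16 in replicate 2 alone.

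**Figure D2:**
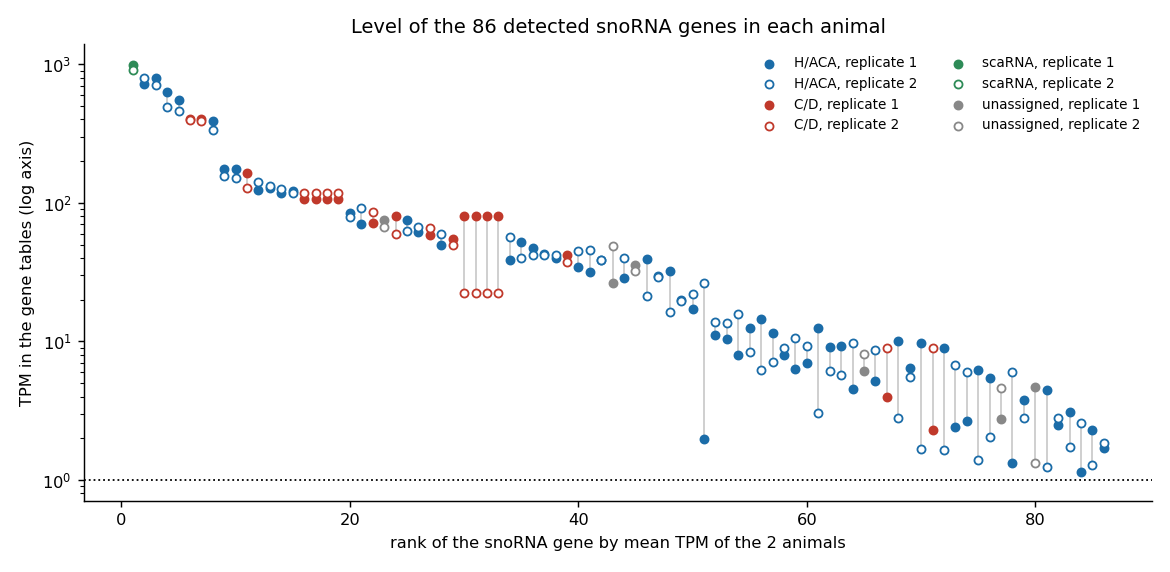
TPM in the gene tables (y, logarithmic) of the 86 members, ordered by the mean of the 2 animals, with filled points for replicate 1, open points for replicate 2 and colour for class. The 8 highest members lie above 300 TPM in both animals; the 4 U3 entries with open points far below the filled ones are the 216-base copies, and Snora52 stands out in the other direction.

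Scarna10 was the highest member. This RNA, also known as U85, carries features of both classes and guides modification of the spliceosomal U5 RNA in Cajal bodies. It reached 992 TPM in replicate 1 and 903 TPM in replicate 2, from 5573 and 4528 reads, and so took 32.1% and 33.1% of all member reads. The 10 members of highest mean TPM took 71.5% and 71.9%. Scarna10 lies in Ncapd2, a condensin subunit gene, at 9.52 and 11.3 TPM.

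The H/ACA members spanned from about 1 TPM to the level of Gm26447 and Gm22988. Their median was 14.5 TPM in replicate 1 and 16.2 TPM in replicate 2. Gm26447 reached 725 and 791 TPM from 525 and 511 reads, and Gm22988 reached 792 and 712 TPM from 870 and 698 reads. Their order was thus reversed between the animals, and neither can be put above the other. Snora74a, also known as U19, followed at 635 and 495 TPM. The U17 genes were next, with Snora73b at 554 and 459 TPM and Snora73a at 392.4 and 333 TPM. Snora73b was above Snora73a in both animals. The deposited posterior SD of their counts was 6.07 to 7.94 reads.

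Below these 5 genes the H/ACA levels dropped to under 200 TPM. Gm26448, the U17 relative in Rpsa, reached 176 and 156 TPM. Gm26397, in the mitochondrial import gene Tomm20, reached 174 and 152 TPM. The rest of the 10 highest were Gm22422 in Trmt10c (124 and 141 TPM), Gm26079 in Ep400 (129 and 133 TPM) and Gm25117 in Nap1l1 (118 and 126 TPM). These 3 differed from each other by about as much as they differed between animals.

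The C/D members had a higher median, 80.8 TPM in replicate 1 and 62.7 TPM in replicate 2. The U3 entries make up 9 of the 18. The median of the other 9 was 71.2 TPM in replicate 1 and 66.3 TPM in replicate 2. Snord15b, a methylation guide for 28S ribosomal RNA, reached 400.9 and 399 TPM. Gm22486, the Snord94 gene, reached 404 and 389 TPM, so that these genes could not be told apart. Snord17 followed at 164 and 129 TPM.

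Snord22, or U22, a C/D RNA needed for 18S ribosomal RNA, reached 71.2 and 86.3 TPM in the host RNA gene Snhg1. Snord15a stood at 58.4 and 66.3 TPM and Gm25835 at 80.1 and 59.1 TPM. Snord118, or U8, which is needed for the 28S and 5.8S ribosomal RNAs, was near the limit, with 2 and 7 reads (2.29 and 8.97 TPM). Snord8 was called detected on 1 and 2 reads (4.00 and 8.97 TPM). U13 (Snord13, 104 bases) had 0 reads in both libraries, which allows up to 3 reads, and the U14 genes (86 to 90 bases) were too short to be counted.

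Near the threshold the rule rested on single reads. Just inside it were Gm25945 (1.14 and 2.56 TPM, 1 and 2 reads), Gm23346 (4.45 and 1.25 TPM, 4 reads and 1 read) and Gm26123 (2.29 and 1.28 TPM, 2 reads and 1 read). Just outside were Gm22865 (0.70 and 0.79 TPM), Gm22620 (0.59 and 7.69 TPM) and Gm24095 (1.21 and 0.35 TPM). The gene left out with the most reads was Snora43, whose overlapping entries of 139 and 127 bases exchanged their reads between the animals. The longer held 20 reads in replicate 1 and 0 in replicate 2, and the shorter 0 and 12. Snord23 had 3 reads (13.4 TPM) in the first animal and 0 in the second.

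Several members are close copies of each other. Among 83 members compared by global alignment, 39 fell into 13 families linked by at least 75% identity, a limit chosen after the sequences were seen. Outside U3 there were 12 families with 30 members, 27 of them H/ACA. The levels within a family could differ many-fold. Gm22988 (792 and 712 TPM) has 3 relatives of the same length in other host genes: Gm25117 in Nap1l1 at 118 and 126 TPM, Gm25291 in Sec24a at 84.8 and 78.5 TPM, and Gm24727 in Gsr at 31.9 and 45.9 TPM. All 3 were below Gm22988 in both animals. The deposited posterior SD of the count was 0 in both libraries for Gm25117 (130 and 124 reads) and 1.02 and 0.70 reads for Gm24727 (35 and 45 reads).

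In the Snora70 family the named gene was not the highest. Snora70, in the ribosomal protein gene Rpl10, reached 11.2 and 13.7 TPM, Gm26165 in Snx5 11.6 and 7.08 TPM and Gm22362 in Ybx3 4.71 and 1.32 TPM. Gm22422, 83.2% identical to Snora70, reached 124 and 141 TPM in Trmt10c, although this host had only 4.32 and 4.20 TPM. By contrast, the Pabpc4 pair, Gm22154 (42.6 and 42.0 TPM) and Gm25788 (29.7 and 28.9 TPM), with 96.9% identity, stood close together. Gm25394 in Iars (75.2 and 62.5 TPM) and Gm25989 in Qtrt2 (49.8 and 59.8 TPM) approached each other in replicate 2. Gm25776 in Gtf2a1 reached 122 and 117 TPM, while its relative Gm25848 in Fbxo45 had 6 and 2 reads.

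Most members lie in genes that the cortex expressed. A host on the same strand was found for 81 of the 86, in 63 distinct genes, of which 53 are protein coding. Ribosomal protein genes made up 10 of these hosts, with 11 members, and Snhg RNA genes 7. The members without a host were Rnu3a, Snora17, Snora57, Snord118 and Gm25857. Of the 81, 53 lie wholly within an intron, 10 overlap an exon and 18 lie inside a host exon, which for 14 of them belongs only to retained-intron or processed transcripts. In total 62 of the 63 hosts had at least 1 TPM in both animals. The exception was Tex14, a testis gene that spans the Rnu3b cluster, at 0.360 and 0.0100 TPM.

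Detection went along with the level of the host. Among snoRNA genes longer than 100 bases, 5 of 765 without a host were members (0.654%). With a host under 1 TPM, 8 of 61 were members (13.1%), all of them the Rnu3b entries in Tex14. The share was 13 of 57 (22.8%) for hosts of 1 to 10 TPM, 41 of 132 (31.1%) for 10 to 100 TPM, and 19 of 33 (57.6%) for 100 TPM or more. However, the 18 members inside a host exon can share reads with their host. Across all members, 28 had every stretch of 31 bases in common with other genes. The part of shared reads in this trend was not tested. The median host level was 24.2 TPM in replicate 1 and 27.9 TPM in replicate 2, against 14.4 and 15.7 TPM for all detected coding genes.

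The levels of members and hosts were then set side by side. Across the 81 members with a host, Pearson's r of log2(TPM + 1) was -0.11 in replicate 1 and -0.02 in replicate 2. Over the 73 outside the Rnu3b cluster it was 0.05 and 0.10. These points share their libraries, and members of 1 host share a host value. In both animals 37 members were above their host and 42 below. Member TPM divides by effective lengths of only 10 to 225 bases, so these orders depend on that divisor as well as on reads. Gm22422 and the Snhg3 genes were far above: Snhg3 itself had 11.2 and 15.2 TPM, under Snora73b at 554 and 459 TPM. Snora31 was far below, at 8.01 and 8.97 TPM in a host of 434 and 436 TPM. Gm26205 had 1.70 and 1.85 TPM in Rpl6 (221 and 217 TPM), but rested on 1.44 and 1.4 reads. It lies inside a retained-intron exon of Rpl6, with which it can share reads.

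Members of the same host could differ widely. In Eif4a1, at 120 and 129 TPM, Gm22988 reached 792 and 712 TPM, Gm25835 80.1 and 59.1 TPM and Gm24029 9.81 and 1.68 TPM, in that order in both animals. The first was thus 80.7 and 424 times the last, which rested on 10.5 and 1.61 reads. In Eif4a2, at 368 and 368 TPM, Gm26447 reached 725 and 791 TPM and Gm24616 9.24 and 5.75 TPM. The other long H/ACA genes of Eif4a2, Snora81 and Gm24201, had under 3 reads in replicate 1 and 0 in replicate 2. In Rps3 (133 and 146 TPM) Snord15b was above Snord15a by 6.86 and 6.01 times in TPM. Gm22988, Gm24029, Gm26447 and Snord15b lie inside host exons and have every stretch of 31 bases in common with other genes, their hosts included. They can share reads with their hosts, and the part of such reads in these ratios was not tested.

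The same held across classes and for undetected neighbours. In Snx5, C/D Snord17 (164 and 129 TPM) was above H/ACA Gm26165 (11.6 and 7.08 TPM). In the importin gene Ipo7, Snora23 (47.2 and 42.2 TPM) was above Gm25636 (2.43 and 6.80 TPM). In Rpsa, Gm26448 was detected while Snora62 and Gm24044 had 0 reads in both libraries, which allows up to 3 reads in each. In Snhg12, Snora44 reached 40.1 and 42.3 TPM and Snora61 12.5 and 3.03 TPM, and both Snora16a entries had 0 reads. Snora44 and Snora61 lie inside exons of Snhg12, with which they can share reads. In Taf1d 1 of 5 long snoRNA genes, Gm25791, was a member.

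**Figure D3:**
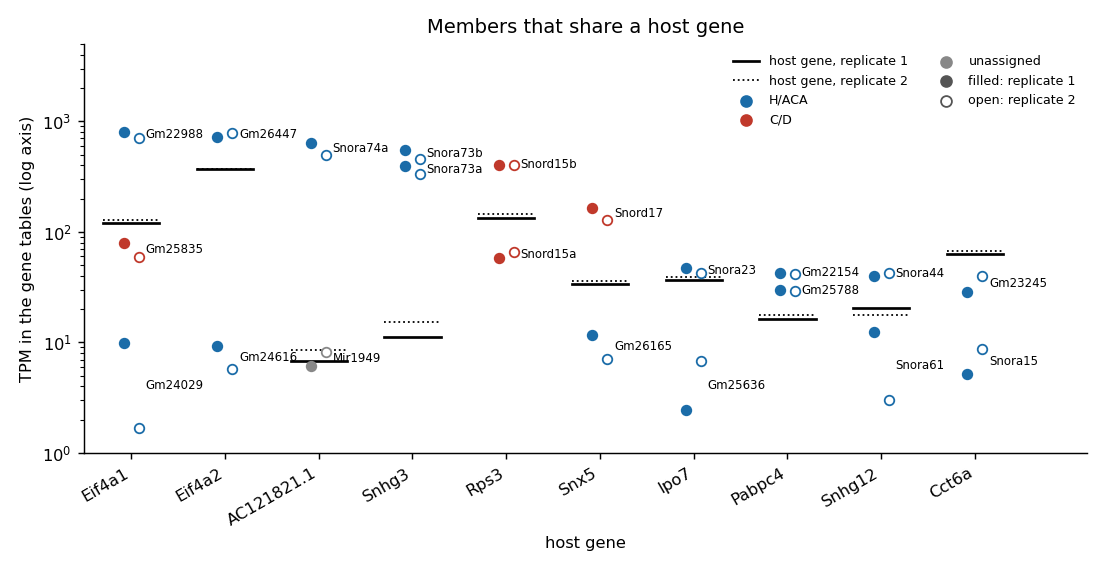
TPM in the gene tables (y, logarithmic) of members that share a host gene (x), with filled points for replicate 1, open points for replicate 2, and bars for the host gene (solid for replicate 1, dotted for replicate 2); the Rnu3b entries in Tex14 are not drawn. Within Eif4a1, Eif4a2 and Rps3 the upper member lies above its host and the lowest below it in both animals.

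The imprinted clusters, which hold the snoRNAs best known in neurons, gave no member. Between Ube3a and Snrpn (chr7:59228750-60140219, the mouse counterpart of the Prader-Willi region) 210 snoRNA genes are annotated, 208 of them in Snhg14, with 17 Snord116 genes, Snord64 and Snord107. They are 67 to 94 bases long. Between Dlk1 and Dio3 (chr12:109452823-110281097) 23 are annotated, 12 of them in Rian, 68 to 82 bases long. None of these 233 genes exceeds 100 bases, and all had 0 in every table, as every entry of that length did. They make up 50.8% of the snoRNA genes that are too short.

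Their host RNAs had reads in both animals in the gene tables. Snhg14 reached 524 and 649 TPM, Snrpn 350.4 and 376 TPM and Snurf 1045 and 1073 TPM. In the other cluster Meg3 reached 820 and 1102 TPM, Rian 408 and 496 TPM and Mirg 36.2 and 49.0 TPM. In the transcript tables Snurf was at 0 in both libraries, Snhg14 at 1004 and 1047 TPM and Snrpn at 348 and 321 TPM, while Meg3 had 762 and 938 TPM, Rian 492 and 532 TPM and Mirg 38.8 and 47.1 TPM.

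The deposited transcript tables with estimated counts, made from the same reads in another way, held almost none of the members. Summed per gene, 75 of 86 members (87.2%) were at 0 in both of these tables. Of the other genes with at least 1 TPM in both gene tables, 188 of 14746 (1.27%) were. Member reads came to 2043 and 2941 in these tables, against 17348 and 13701 in the gene tables. At least 1 TPM in both was reached by 3 snoRNA genes, all of them members: Scarna10 (428 and 723 TPM), Gm23547 in the prohibitin gene Phb2 (125 and 204 TPM) and Gm24119 (1.43 and 4.98 TPM). Across the members Pearson's r of log2(TPM + 1) between the tables was 0.23 in replicate 1 and 0.25 in replicate 2; across all genes with at least 1 TPM it was 0.90 and 0.92.

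The loss followed length and was shared with other short genes. Among genes with at least 10 expected counts in both gene tables, all 32 members and all 14 other genes of 101 to 150 bases were at 0 in both transcript tables. At 151 to 200 bases 3 of 4 members and 25 of 34 other genes (73.5%) were, and at 201 to 300 bases 6 of 15 members (40.0%) and 15 of 43 other genes (34.9%). For genes longer than 1000 bases it was 13 of 16106 (0.0807%).

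**Figure D4:**
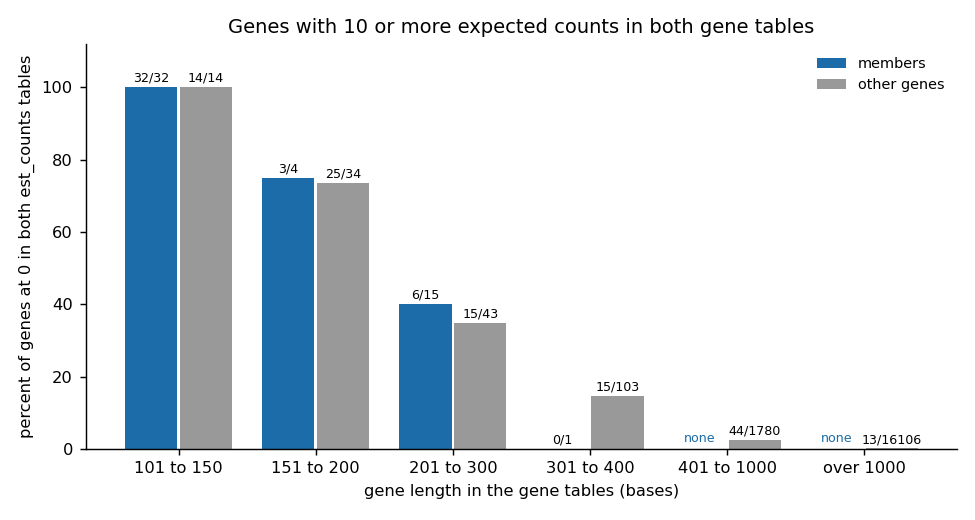
Percent of genes (y) at 0 in both transcript tables with estimated counts, by gene length in bases (x), for members (blue) and other genes (grey) with at least 10 expected counts in both gene tables; the numbers above the bars are genes at 0 over genes in the bin. The share falls from all of 32 members and all of 14 other genes at 101 to 150 bases to 13 of 16106 genes longer than 1000 bases.

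Gm26447, Gm22988, Snora74a, Snora73b and Snord15b, all above 390 TPM in both gene tables, were at 0 in both transcript tables. Among the 23 members with no stretch of 31 bases in common with another gene, 20 were at 0 in both. Those 23 held 1470 and 1199 reads in the gene tables and 4 and 159 in the transcript tables, 147 of the latter on Snord17 in replicate 2, which had 0 in replicate 1. The only member higher in the transcript tables was Gm23547, with 387 and 443 reads there against 179 and 144. Scarna10 kept 1644 and 2334 of its 5573 and 4528 reads.

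The effective lengths in the transcript tables also differed between the libraries. The median over the members was 56.8 bases in replicate 1 and 30.2 bases in replicate 2, while in the gene tables it was the same in both libraries. For Scarna10 it was 135 and 109 bases. The part of this difference in the values was not tested.

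The tables did not resolve the copies of U3. The cluster in Tex14 holds 4 loci, Rnu3b1 to Rnu3b4, each annotated by an entry of 215 bases and another of 216 bases that contains it. The 4 short entries are identical to each other, as are the 4 long ones. Each 215-base entry was given 305 reads in replicate 1 and 304 in replicate 2 (106 and 119 TPM), and each 216-base entry 234 and 58.1 reads (80.8 and 22.5 TPM). Equal values for identical entries show that the reads were divided evenly among them, so no locus has a measured level of its own. The deposited TPM intervals of these 8 entries ended between 99.7 and 317 TPM. They began at 1.25 TPM or less in both libraries except for the 215-base Rnu3b4 entry, at 10.6 TPM in replicate 1.

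Summed over the cluster, the counts no longer depend on how reads were divided among its own entries. Rnu3b held 2155 reads in replicate 1 and 1448 in replicate 2. Rnu3a, the gene outside the cluster, held 156 and 127 reads (54.8 and 49.96 TPM) at its 214-base entry, and its 213-base entry had 0. The deposited posterior SD of the Rnu3a count was 32.09 and 25.95 reads. Of its stretches of 31 bases 99.5% were shared with other snoRNA entries, so Rnu3a was not well resolved either. Its counting interval leaves this out. The log2 ratio of replicate 2 over replicate 1 was -0.54 for Rnu3b (95% counting interval -0.64 to -0.44) and -0.26 for Rnu3a (-0.61 to 0.08). The intervals of the genes overlapped.

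Members were compared between the animals by the log2 ratio of expected counts, replicate 2 over replicate 1, after scaling by edgeR's TMM. A call of different needed at least 10 reads in a library, a ratio of at least 2-fold, and a strict counting interval, leaving 0.1% outside, that did not reach equality. By this rule 5 of 60 members that could be compared were called (8.33%), against 1.22% of 19484 genes. Higher in replicate 1 were 4 members (0.647% of genes) and higher in replicate 2 was 1 (0.57% of genes). The 4 were the 216-base Rnu3b entries, each with a log2 ratio of -1.97. With the 2 entries of each locus summed, the ratio was -0.54 and no Rnu3b locus was called. The call on these 4 thus rested on how reads were divided between nested entries, and 1 member called remained of 56 loci compared.

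The remaining call was Snora52. Its expected counts were 1.83 and 21.8 (1.98 and 26.4 TPM), a log2 ratio of 3.20 (1.47 to 6.63). Its host Rplp2 had 295 and 268 TPM, with a log2 ratio of counts of -0.23. Snora52 lies inside an exon of a host transcript with which it can share reads, and the deposited interval of its TPM in replicate 1 overlapped that in replicate 2.

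A smaller shift ran through the well-measured members. The median log2 ratio of the 60 was -0.17, and that of all genes compared was -0.00. Among 18 members with a mean of at least 100 reads outside the Rnu3b cluster, 17 were lower in replicate 2, Gm26447 at -0.00 among them, against 51.6% of 13084 genes with that many reads, with ratios from -0.49 to 0.06 and a median of -0.27. The 95% counting interval excluded 0 for 7 of these 18, all lower in replicate 2, as it did for 30.8% of those genes (16.2% lower in replicate 2). Snora74a (-0.49), Snord17 (-0.48), Snora73b (-0.40) and Snora73a (-0.37) were the lowest. Gm22422 (0.06) was the only one of the 18 with a ratio above 0.

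**Figure D5:**
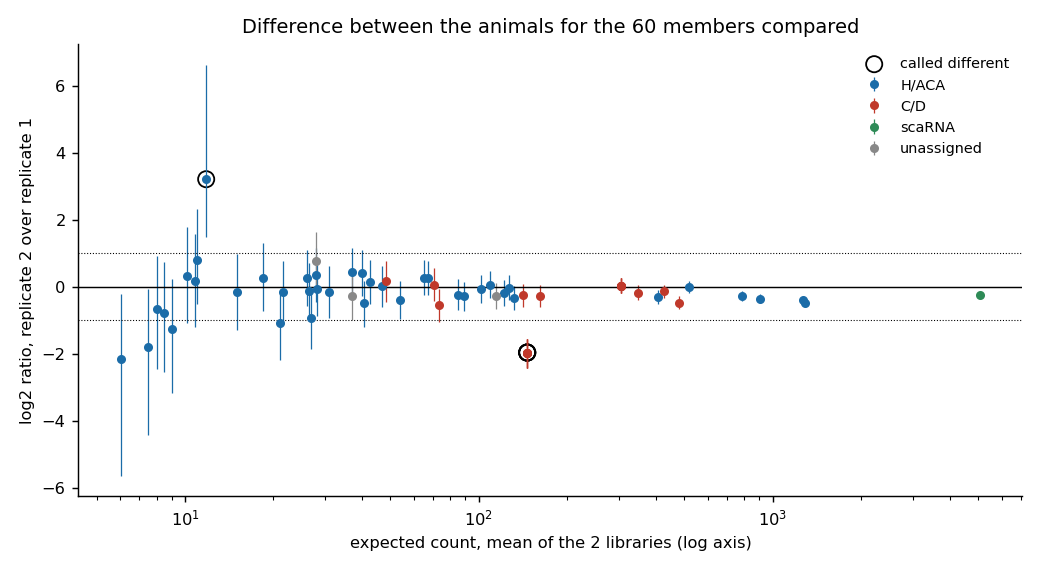
Log2 ratio of expected counts, replicate 2 over replicate 1 (y), against the mean count of the 2 libraries (x, logarithmic) for the 60 members compared, with 95% counting intervals, colour for class and circles for members called different. Of the 26 members to the right of 100 reads, 17 lie between 0 and -0.49, the 4 short Rnu3b entries coincide at 0.03 and Gm22422 lies at 0.06; the circled points are Snora52 and the 4 coinciding 216-base Rnu3b entries.

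By the deposited TPM intervals, 5 of 86 members did not overlap between the animals: Scarna10, Snora74a, Snora73b, Snora73a and Snord17. All 5 were higher in replicate 1. Of 14843 genes with at least 1 TPM in both libraries, 17.5% did not overlap, and 0.815% did so with the higher TPM in replicate 1. These TPM were not scaled by TMM. With scaled counts, the 95% counting interval lay below 0 for 16.2% of genes with a mean of at least 100 reads. All member reads together had a log2 ratio of -0.31 (-0.34 to -0.27). Some other structural RNAs moved the same way. The signal recognition particle RNAs Rn7s1 and Rn7s2, whose counts were equal to each other in each library, had -0.27 each. The RNase P RNA Rpph1 had -0.23, the entries of the RNase MRP RNA Rmrp -0.35 and -0.46, and Rn7sk -0.10. The highest genes annotated as scaRNA, Scarna2, Gm25395, Scarna13 and Gm22009, had -0.16, -0.13, -0.11 and 0.05. On few reads, the Y RNA Rny1 had -0.75 (40 and 23 reads). The telomerase RNA Terc (0.54, on 16 and 23 reads) and the vault RNA Vaultrc5 (0.48, on 5 and 7 reads) had ratios above 0. The choroid plexus markers Ttr (535 and 101 TPM), Kl (5.17 and 1.76 TPM) and Folr1 (4.20 and 0.630 TPM) were all higher in replicate 1, 3 of 3 called. The other 9 tissue markers, of neurons and glia, were not called, among them Snap25 at 1167 and 1318 TPM and Slc1a2 at 643 and 664 TPM. The part of the choroid plexus RNA, of the structural RNAs or of the library in the shift of the members was not tested.

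Genes for the proteins that carry these RNAs were all measured, as RNA only, and none was called different. Of the C/D core, the methyltransferase fibrillarin (Fbl) had 22.03 and 26.2 TPM, Nop56 54.2 and 56.0 TPM, Nop58 26.7 and 26.6 TPM and Snu13 45.0 and 45.0 TPM. Of the H/ACA core, the pseudouridine synthase dyskerin (Dkc1) had 14.8 and 16.3 TPM, Gar1 16.0 and 22.9 TPM, Nhp2 20.7 and 23.0 TPM and Nop10 20.3 and 24.9 TPM. Among these 8 genes only the interval of Gar1 (0.39, from 0.10 to 0.68) excluded 0.

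Genes for the factors that build, cap and trim snoRNAs were also measured as RNA. The 10 assembly genes had a median of 13.3 and 13.5 TPM, from Shq1 at 2.45 and 2.64 TPM to Pih1d1 at 25.3 and 18.1 TPM. The 3 genes of the Cajal body and cap, Coil, Wrap53 and Tgs1, had a median of 8.32 and 9.13 TPM. The 5 processing genes, among them the debranching enzyme Dbr1 (5.70 and 7.82 TPM) and the nuclease Xrn2 (17.4 and 20.7 TPM), had a median of 15.1 and 15.7 TPM. The 6 genes for proteins of the U3 complex, such as Rrp9 (13.3 and 14.6 TPM) and Mphosph10 (6.98 and 7.30 TPM), had a median of 12.4 and 13.2 TPM. The median log2 ratio of these lists lay between -0.09 and 0.10, and 0 of their 32 genes with the core proteins were called. Of 22 host RNA genes 21 could be compared and 0 were called, with Meg3 (0.38) and Mirg (0.43) among the highest ratios and Snhg5 (-0.43) the lowest.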

How the data were processed

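The gene tables with expected counts and TPM were made by the authors from alignments to the transcriptome on mm10 with annotation M21, per the deposited description and the file headers. The transcript tables with estimated counts and TPM were made by the authors from the reads against the same annotation, per the deposited description; they were summed here per gene. Programs, versions, read length and filters: not given in the sources used here. Depth was 33925198 and 32380299 expected counts on genes in replicates 1 and 2. Spike-ins and tRNA entries were kept apart; reads lack molecular identifiers, so intervals cover counting error only.

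Members and gene lists were chosen with earlier results of these data known. Class came from the symbol or a RefSeq gene overlapping at least 80% of the snoRNA gene, then from the boxes. Hosts, positions and sequences came from GENCODE M21. Expected counts were rounded, scaled by TMM (edgeR 4.0.16; DESeq2 1.42.0 as an alternative) and compared with 0.5 reads added. The comparison was tested on simulated data. Genes named are the 10 highest H/ACA and 10 highest C/D members, the U3, U8, U13, U14, U17 and U22 families, imprinted clusters, members called, the extremes of agreement between tables, threshold neighbours, their hosts and the gene lists; other members named for shared hosts or sequence families were chosen after their values were seen. The lists hold snoRNP core, assembly, Cajal body and cap, processing, U3 complex, host RNA and tissue marker genes.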

Additional observations from a re-analysis of the deposited data

How the results depend on the processing

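The number of members (86) was 88 at a threshold of 0.5 TPM, 64 at 5 TPM, 101 with the detected scaRNA-type genes, and 102 or 104 with replicate 1 or replicate 2 left out; it was 52 with at least 10 expected counts in both libraries and 3 by the TPM of the estimated-count tables. The H/ACA share of 70.9% was 67.2% at 5 TPM, 61.5% with at least 10 counts, 60.4% with the scaRNA-type genes, 33.3% in the estimated-count tables, and 70.6% to 73.1% with an animal left out. The median TPM of H/ACA members, 14.2 over the animal means, was 9.91 to 10.2 with an animal left out; that of C/D members, 66.0, was 62.7 to 80.8. Both medians were 0 in the estimated-count tables and over all annotated genes of the class.

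The 5 members called were the same genes under DESeq2 size factors, total counts, spike-in totals, 1 read added and no filter on reads; with at least 50 reads in a library they were the 4 Rnu3b entries. In alternatives chosen after seeing the data, 1 call was left without the Rnu3b entries and 1 with overlapping entries summed. By the estimated counts 3 members could be compared and 1, Snord17, was called. The median log2 ratio of -0.17 was -0.14 with total counts, -0.091 with spike-in totals, -0.26 with at least 50 reads and -0.21 with overlapping entries summed. It reversed to 0.47 over the 3 members of the estimated-count tables; the cause was not tested. Spike-in totals moved the median of all genes to 0.08. Agreement of the tables (r = 0.26 on animal means) was 0.23 to 0.25 with an animal left out. The correlation of members and hosts (-0.07) was -0.10 with a pseudocount of 0.1 and -0.02 in the estimated-count tables. It reversed to 0.081 with the Rnu3b entries left out, an alternative chosen after seeing the data; the cause was not tested. No paired analysis was possible because there is 1 group. Depth limits the 26 members with under 10 reads in both libraries, and the tables say nothing of snoRNAs of 100 bases or fewer.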

Other observations

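Genes annotated as scaRNA rather than snoRNA lie outside the rule but were measured in the same way. Small Cajal body RNAs guide modification of the spliceosomal RNAs. Of 51 such genes 15 reached 1 TPM in both animals, led by Scarna2 at 549 and 536 TPM, Gm25395 at 286 and 285 TPM, Scarna13 at 267 and 270.4 TPM and Gm22009 at 216 and 244 TPM. Scarna2, of 414 bases, kept 2341 and 2736 of its 4302 and 3754 reads in the estimated-count tables. Gm25492 and Gm22442, of 129 and 144 bases, had 141 to 181 reads in the gene tables and 0 in the estimated-count tables.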
